A study of Mus musculus with 4 samples.

Results

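The cytosolic ribosomal protein genes were followed in the larynx of *Shh*-/- and WT mouse embryos. A gene was counted as a member when the deposited tables named it *Rpl* or *Rps* with a number (and at most a letter a, x or l and a further digit), or named it *Rpsa*, *Rplp0*, *Rplp1* or *Rplp2*. Names marked as pseudogenes (-ps) and the S6 kinases were left out. *Rps3a2*, *Rps3a3*, *Rps4l* and *Rps12l1* are annotated as processed pseudogenes, but their names carry no such mark and they stayed in. The rule used names and no measured value, and it gave 87 of the 46983 genes, 51 of the large subunit and 36 of the small subunit.

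Ribosomal proteins are built with ribosomal RNA into the small subunit, which reads the mRNA, and the large subunit, which joins amino acids. Each ribosome holds about one copy of most of them, and cells that grow quickly, as in the embryo, spend a large part of their transcripts on these genes. Most of their mRNAs start with a run of pyrimidines (a 5′ terminal oligopyrimidine, or TOP, tract) through which mTOR signaling sets their translation. Their short, abundant mRNAs have often been copied back into the genome, so that most members have processed pseudogenes, which are intronless copies of near-identical sequence.

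Larynx tissue was dissected at E10.5 (32 to 35 somites), and 3 larynxes were pooled for each library. The *Shh*-/- pools 1 and 2 carried the Shhtm1amc null allele, a germline mutation that every cell of the embryo carries, and the WT pools 4 and 6 came from Swiss Webster embryos, the background on which the allele is kept. The sample labels write the mutant genotype as heterozygous, while the series design and the study's methods write *Shh*-/-, which was used here. Tissue was taken whole, so epithelium, mesenchyme and blood were measured together, and fewer cells of a type cannot be told apart from less RNA per cell. Nothing in the labels says how the pools differ beyond genotype, RNA amount and RNA integrity. The p-values rest only on the spread between the 2 pools of each group, which limma draws toward a trend over all tested genes.

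The deposited tables give TPM, a share of each library scaled for transcript length, and no counts. Fold changes (log2FC) are *Shh*-/- minus WT on log2(TPM + 1) from limma, an empirical Bayes linear model. It was fitted to all 16972 genes whose TPM averaged 1 or more, and p-values were adjusted over all of them by the Benjamini-Hochberg method. The aligned bases came to 1372 and 3128 megabases in *Shh*-/- pools 1 and 2 and to 2845 and 2972 megabases in WT pools 4 and 6, so that *Shh*-/- pool 1 had the lowest depth. The RNA integrity number was 8.0, 7.7, 7.7 and 9.0 in the same order. *Shh* itself was at 10.4 and 10.8 TPM in *Shh*-/- and at 23.7 and 42.1 TPM in WT (log2FC −1.49, limma adjusted p = 0.0895), with no overlap. The HH target and receptor gene *Ptch1* was at 12.9 and 13.8 TPM against 57.8 and 55.1 TPM, and it fell by 1.997 on the log2 scale (limma adjusted p = 0.0319). 

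Of the 87 members, 83 passed the filter on low values. The other 4, *Rpl3l*, *Rpl10l*, *Rpl39l* and *Rps12l1*, were listed at 0 in all 4 pools. *Rpl3l* is known from muscle and *Rpl10l* and *Rpl39l* from testis, and *Rps12l1* is annotated as a processed pseudogene. Together the members took 9.78 and 10.75% of TPM in *Shh*-/- pools 1 and 2 and 10.76 and 10.78% in WT pools 4 and 6. Pool 1 alone stood below the others. The large subunit genes took 5.34, 5.90, 5.82 and 5.92% in this order, and the small subunit genes took 4.44, 4.85, 4.93 and 4.87%.

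Levels differed widely between members, although most ribosomal proteins are used in nearly equal number. In WT the mean TPM ran from 58.9 to 3277 among the large subunit genes, with a median of 1102, and from 58.7 to 3491 among the small subunit genes, with a median of 1342. By the mean over all 4 pools, *Rplp0*, the base of the stalk that recruits translation factors, *Rpl4* and *Rpl13a* were the highest of the large subunit. The lowest were *Rpl29*, *Rpl7a* and *Rpl7l1*. In the small subunit *Rps14* and *Rps26*, proteins of the platform and mRNA exit side, were among the highest, and *Rps4l*, *Rps3a3* and *Rps15a* lowest. Of these low genes, *Rps4l* (58.7 TPM in WT) and *Rps3a3* are annotated as processed pseudogenes, and *Rpl7l1* works in ribosome assembly. Their levels therefore do not stand for a protein used in equal number. *Rps14* had 3179 and 3619 TPM in *Shh*-/- and 3467 and 3387 TPM in WT, which overlap. *Rplp0* had 3167 and 2599 TPM in *Shh*-/- and 3273 and 3281 TPM in WT.

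The comparison between genotypes gave small differences for most members and large ones for a few. Of the 83 members tested, 3 passed the adjusted threshold of 0.05 as higher in *Shh*-/-, against 0.56% of all tested genes, and 0 passed as lower, against 0.165%. The 3 were *Rpl29*, *Rpl7a* and *Rps2*. At an unadjusted limma p under 0.05 there were 6 higher and 6 lower members, where 17.5% of all tested genes were higher and 7.22% lower. The fold changes of 58 members were within 0.2 of 0 on the log2 scale, and 7 members exceeded 0.5 in size. Both *Shh*-/- pools lay above both WT pools for 10 members, against 38% of all tested genes, and below both for 27, against 22.7%.

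Most of the members had slightly negative fold changes. In all, 25 of 83 were above 0 (30.1%), against 58.3% of all tested genes. Their median was −0.08, with all tested genes at 0.08. In the large subunit 18 were above 0 and 30 below (median −0.08), and in the small subunit 7 were above and 28 below (median −0.07). The scaling between libraries set this split in part. With each library centred on its median, 13 members were above 0 and 70 below, and all tested genes moved to a median of −0.05, so that the members stood 0.16 below all genes under both scalings. Quantile normalization gave 32 above and 51 below, and the members stood 0.03 below all genes.

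*Shh*-/- pool 1 held much of the downward tilt. That pool held the lowest of the 4 values for 58 of the 83 members (69.9%), against 22.3% of all tested genes. Between the 2 *Shh*-/- pools, pool 2 minus pool 1, the members had a median difference of 0.14 on the log2 scale and all tested genes one of −0.05. Between the WT pools, 6 minus 4, the medians were −0.02 and −0.03. Without *Shh*-/- pool 1, 41 members were above 0 and 42 below, with medians of 0.01 in the large and −0.0004 in the small subunit. All tested genes then had a median of 0.07, so that the members still stood 0.07 below all genes. Without *Shh*-/- pool 2, 19 were above and 64 below. The part of depth in this was not tested.

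**Figure D1:**
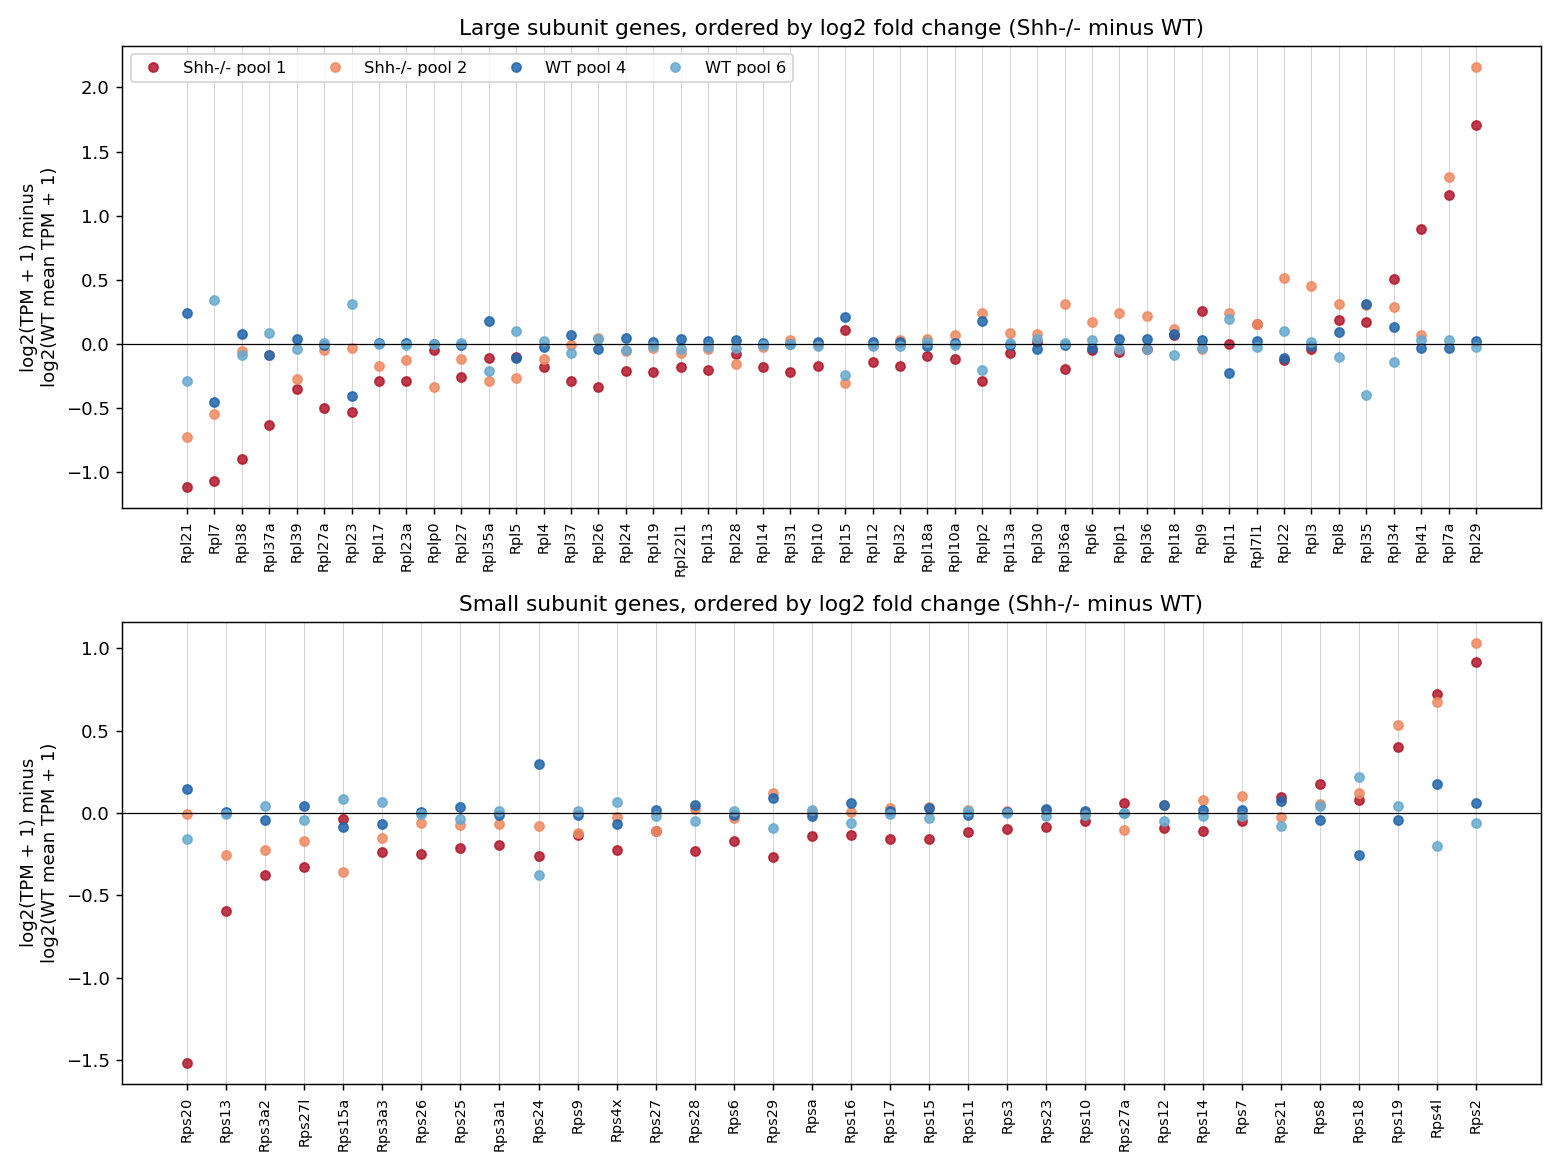
Level of tested members in each pool (1 small subunit gene is not shown), as log2(TPM + 1) minus the log2 of the mean WT TPM + 1, with the large subunit above and the small subunit below. Genes are ordered by fold change. *Shh*-/- pool 1 (dark red) is the lowest point for most genes, and at the right end both *Shh*-/- pools of *Rpl29*, *Rpl7a* and *Rps2* stand apart from WT.

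*Rpl29* codes for a small surface protein of the large subunit. It was at 194 and 266 TPM in *Shh*-/- and at 59.8 and 57.9 TPM in the WT pools. The groups did not overlap, and the WT pools were close to each other. The mean was 230 ± 51.0 TPM (SD, n = 2) against 58.9 ± 1.41 TPM (SD, n = 2), for a log2FC of 1.93 (standard error 0.17, limma adjusted p = 0.0404).

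*Rpl7a*, an RNA-binding protein of the large subunit, was at 296 and 327 TPM in *Shh*-/- and at 129 and 134 TPM in WT. All 4 values kept the groups apart. Its log2 fold change was 1.23 (standard error 0.10, limma adjusted p = 0.0323).

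*Rps2* codes for a small subunit protein at the channel through which mRNA enters. Its values were 445 and 483 TPM in *Shh*-/- and 245 and 226 TPM in WT, again without overlap. Its log2 fold change was 0.98 (standard error 0.10, limma adjusted p = 0.0434). Both large subunit genes were among the lowest of their subunit, and each of the 3 calls was lost when any one pool was left out, with adjusted p between 0.0699 and 0.175 from limma and fold changes that stayed between 0.92 and 2.16.

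These 3 genes have some of the largest sets of pseudogenes among the members. Pseudogene transcripts in GENCODE M21 were matched to members by sequence (at least 90% identity over at least 150 bases and 50% of the shorter one), which gave 843 pseudogenes for 76 members, with a median of 7 for a tested member. *Rpl21* had 68, *Rpl7a* 57, *Rpl29* 52 and *Rps2* 44, and these were the 4 highest numbers. The match used sequence only and no measured level. Reads of such copies can be assigned to either, and the values of these genes are uncertain in that sense.

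The sequences below show how near the copies are. For each gene the pseudogene of highest mean TPM was taken, and the stretch of 75 coding bases, aligned without gaps, that holds the most differences is printed. Capitals mark the bases that differ. The sequences are those of the reference (GENCODE M21, GRCm38), given 5′ to 3′ on the mRNA strand.
Rpl29, coding bases 192 to 266: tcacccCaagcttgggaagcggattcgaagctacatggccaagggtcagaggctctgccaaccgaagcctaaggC
Gm13841: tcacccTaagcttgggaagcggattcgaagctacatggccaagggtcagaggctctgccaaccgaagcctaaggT
Rpl7a, coding bases 112 to 186: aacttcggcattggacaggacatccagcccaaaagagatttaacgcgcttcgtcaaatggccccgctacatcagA
Gm8226: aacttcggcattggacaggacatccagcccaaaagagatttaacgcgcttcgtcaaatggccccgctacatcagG
Rps2, coding bases 10 to 84: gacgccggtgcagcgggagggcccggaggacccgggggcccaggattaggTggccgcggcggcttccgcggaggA
Rps2-ps13: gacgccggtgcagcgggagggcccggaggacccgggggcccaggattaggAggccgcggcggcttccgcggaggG

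*Rpl29* lies at chr9:106429454-106431568 (mm10) and Gm13841 at chr5:115801677-115802159, and they share 99.4% of 483 aligned bases. *Rpl7a* lies at chr2:26910764-26913318 and Gm8226 at chr9:84423984-84424781, with 99.7% identity over 798 bases. *Rps2* lies at chr17:24718116-24721929 and Rps2-ps13 at chrX:52898588-52899469, with 99.2% identity over 882 bases. Even the most different of these windows held 2, 1 and 2 differences. Distinct 75-base windows were also pooled over all annotated protein-coding transcripts of a gene, without regard to which were expressed. Of these, 28.2% for *Rpl29*, 77.4% for *Rpl7a* and 49.4% for *Rps2* were identical to a stretch of a transcript of another gene. A window with any difference counted as not shared.

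Summed with its pseudogenes, each of the 3 genes differed far less between genotypes. *Rpl29* with its 52 pseudogenes came to 1804 and 2093 TPM in *Shh*-/- and 1921 and 1959 TPM in WT. These values overlap, with a log2 fold change of 0.0020 (limma adjusted p = 0.992). The gene itself held 11.8% of the sum in *Shh*-/- and 3.0% in WT.

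*Rpl7a* with 57 pseudogenes came to 2076 and 2173 TPM in *Shh*-/- and 1982 and 2030 TPM in WT (log2FC 0.08, limma adjusted p = 0.528), of which the gene held 14.7% and 6.6%. *Rps2* with 44 pseudogenes kept part of its difference, at 2421 and 2557 TPM against 2118 and 1984 TPM, which do not overlap (log2FC 0.28, limma adjusted p = 0.148). The gene held 18.6% and 11.5% of that sum. A gene that holds a small part of its sum can move that sum only a little, even where its own change is real. Which copy the reads came from was not tested.

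**Figure D2:**
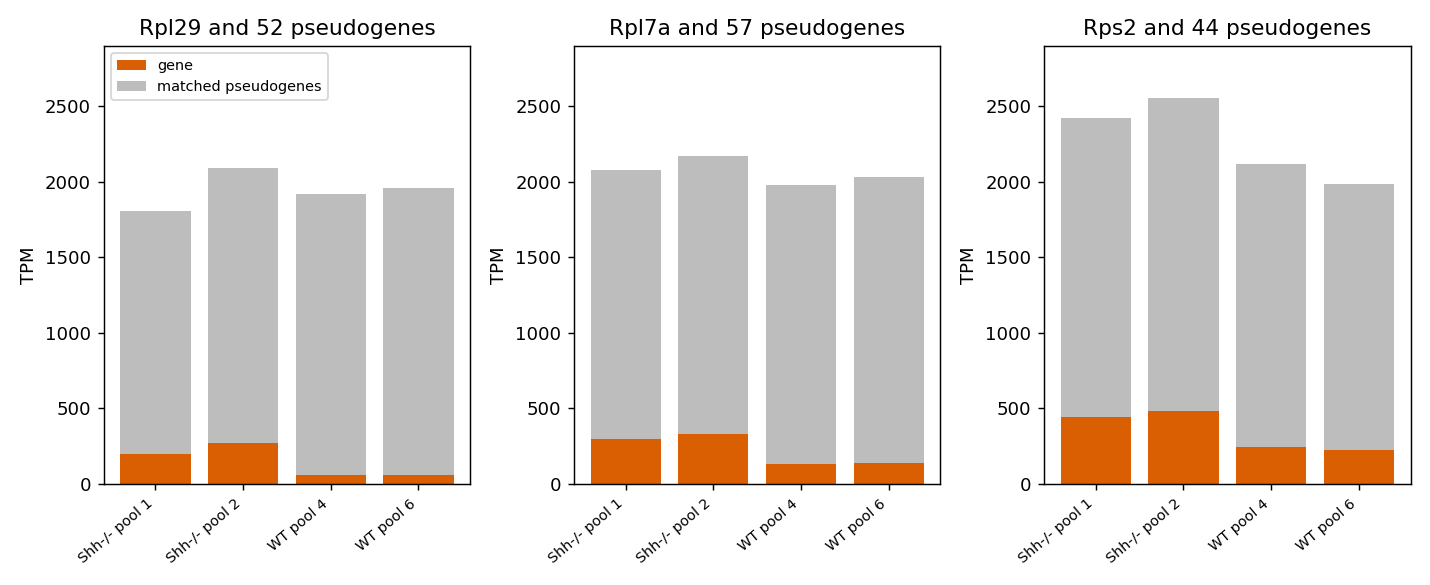
TPM in each pool of *Rpl29*, *Rpl7a* and *Rps2* (orange) and of their 52, 57 and 44 sequence-matched pseudogenes (grey), stacked from 0. The orange part is larger in both *Shh*-/- pools for each gene, while the full bars of *Rpl29* overlap between genotypes (1804 to 2093 TPM against 1921 to 1959 TPM).

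The pseudogenes of 1 gene did not move together. For *Rpl29*, 35 pseudogenes were tested, 9 with a fold change above 0 and 26 below. The most abundant, Gm13841, was at 254 and 278 TPM in *Shh*-/- against 330 and 328 TPM in WT (log2FC −0.31, limma adjusted p = 0.151). Gm17669, on chromosome 18, rose with its parent gene, at 82.6 and 118 TPM against 17.6 and 17.4 TPM (log2FC 2.43, limma adjusted p = 0.0323).

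For *Rpl7a*, 19 of 39 tested pseudogenes were above 0, and Gm5766 rose (5.40 and 4.21 TPM against 0.17 and 0.086 TPM, log2FC 2.36, limma adjusted p = 0.0422). For *Rps2*, 28 of 36 were above 0 and none passed the adjusted threshold in limma. Over all members, 553 pseudogenes were tested and 154 were above 0, with a median of −0.08 and 4 called, against 0.725% of all tested genes called in either direction. Besides the 2 named, these were a copy of *Rps18* on chromosome 6, RP23-252F4.4 (23.8 and 18.9 TPM against 0.24 and 0.52 TPM, log2FC 4.01, limma adjusted p = 0.0319), and Rpl21-ps8. These pseudogenes were picked after their values were seen.

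*Rpl21*, a large subunit protein that has the most pseudogenes, had the lowest fold change of the members. It was at 213 and 279 TPM in *Shh*-/- and at 547 and 380 TPM in WT, without overlap (log2FC −0.90, standard error 0.22, limma adjusted p = 0.121). With its 68 pseudogenes the difference was −0.15. Among them Rpl21-ps8, on chromosome 18, fell by 0.96 on the log2 scale (135 and 137 TPM against 279 and 254 TPM, limma adjusted p = 0.0431).

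Across the 83 members the sums with pseudogenes varied less between genotypes than the genes alone. Adding copies that differ little brings a fold change nearer to 0 by itself. The narrower spread therefore does not show which copy the reads came from. The SD of the fold changes over members was 0.371 for the genes and 0.173 for the sums. The number of members over 0.5 in size went from 7 to 2, and the number within 0.2 of 0 from 58 to 69. None of the sums passed the adjusted threshold in limma, with 2 higher and 5 lower at unadjusted p under 0.05 and a lowest adjusted p of 0.103. That lowest value was of *Rps4l*, which was also among the 2 over 0.5. *Rps4l* had no matched pseudogene, so its sum was the gene alone. Members annotated as pseudogenes were not added to another member. The levels also came closer together, with an SD of the log2 WT level of 1.20 for the genes and 1.03 for the sums. The tilt below 0 was still there, with 19 sums above 0 and 64 below, and *Shh*-/- pool 1 was the lowest for 65. Members and pseudogenes together took 15.2 and 16.9% of TPM in *Shh*-/- and 17.0% in each WT pool.

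**Figure D3:**
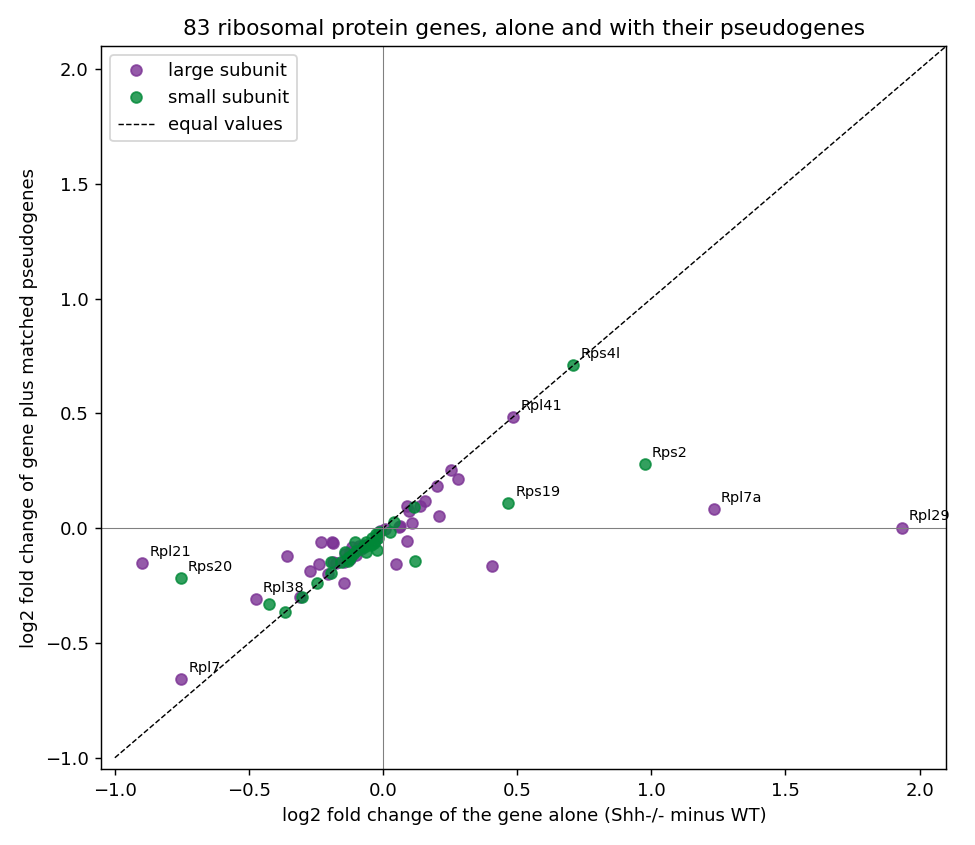
Log2 fold change (*Shh*-/- minus WT) of each of the 83 tested members alone on the horizontal axis and summed with its matched pseudogenes on the vertical axis, with a dashed line where both are equal. *Rpl29*, *Rpl7a*, *Rps2*, *Rps19* and *Rpl21* lie far from the line. They are nearer to 0 on the vertical than on the horizontal axis (*Rps2* at 0.28). *Rpl7* lies close to the line. *Rpl41* and *Rps4l* had no matched pseudogene, so they lie on the line by construction.

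*Rps19*, whose loss causes Diamond-Blackfan anemia in people, showed the same kind of shift. It was at 1194 and 1311 TPM in *Shh*-/- and 878 and 934 TPM in WT, without overlap (log2FC 0.47, limma adjusted p = 0.0962), and with its 13 pseudogenes the fold change was 0.11. *Rpl34* was at 827 and 712 TPM against 637 and 527 TPM (log2FC 0.40, limma adjusted p = 0.169), and −0.16 with its 8 pseudogenes, all 6 tested ones of which were below 0.

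*Rps20*, a small subunit head protein, was at 138 and 395 TPM in *Shh*-/- and 438 and 355 TPM in WT. The first *Shh*-/- pool was low and the second lay within the WT range. Its log2 fold change of −0.75 (standard error 0.50, limma adjusted p = 0.382) was 0.0019 without *Shh*-/- pool 1. *Rpl38*, known for its part in the translation of *Hox* mRNAs in the embryo, followed the same form, with 401 TPM in *Shh*-/- pool 1 and 717, 791 and 703 TPM in the other pools (log2FC −0.48, limma adjusted p = 0.345, and −0.06 without *Shh*-/- pool 1).

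*Rpl41*, the shortest of the proteins, was instead high in *Shh*-/- pool 1 alone. It was at 1533 TPM there and at 866, 807 and 839 TPM in *Shh*-/- pool 2 and the WT pools, with a log2 fold change of 0.48 (limma adjusted p = 0.324) that was 0.07 without *Shh*-/- pool 1. *Rpl7* was uneven in WT, at 2369 and 4124 TPM, against 1551 and 2221 TPM in *Shh*-/- (log2FC −0.75, limma adjusted p = 0.221). Without WT pool 6, the high one, its fold change was −0.35.

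A few members had no matched pseudogene and few windows shared with other genes, so that their values may depend less on how reads were shared out. Few shared windows alone do not ensure this. *Rpl34* shared 8.3% of its windows, and its fold change became −0.16 with its 8 pseudogenes. *Rpl39*, with 12 matched pseudogenes, shared 7.6%. *Rps3* had no matched pseudogene and no identical 75-base window. This protein of the mRNA entry channel was at 1512 and 1632 TPM against 1622 and 1615 TPM (log2FC −0.04, standard error 0.09).

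*Rpl8*, with no matched pseudogene and 3.9% of its windows shared, was at 2209 and 2406 TPM in *Shh*-/- and 2072 and 1804 TPM in WT (log2FC 0.25, standard error 0.11, limma adjusted p = 0.228). Its groups did not overlap. *Rps9*, with no matched pseudogene and 9.8% of its windows shared, was at 1502 and 1513 TPM against 1632 and 1660 TPM (log2FC −0.13).

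*Rps13*, by contrast with these genes, had 29.3% of its windows shared. At 672 and 852 TPM in *Shh*-/- and 1019 and 1012 TPM in WT, it had a log2 fold change of −0.42 (limma adjusted p = 0.157), and −0.33 with its 6 pseudogenes.

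The stalk genes *Rplp0*, *Rplp1* and *Rplp2* had fold changes of −0.19, 0.09 and −0.01. The partners of the 5S RNA, *Rpl5* and *Rpl11*, which bind Mdm2 and stabilize p53 when ribosome assembly fails, had fold changes of −0.18 and 0.14. *Rps6*, the protein that S6 kinases phosphorylate downstream of mTOR, was at 1073 and 1182 TPM in *Shh*-/- and 1197 and 1219 TPM in WT (log2FC −0.10, limma adjusted p = 0.506). None of these passed the adjusted threshold in limma, and of these 6 only *Rplp0* and *Rps6* had groups that did not overlap.

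Some ribosomal proteins have a paralog that can take their place. *Rpl22l1* was expressed at nearly the level of its partner *Rpl22*, at 90.9 and 63.1% of it in the *Shh*-/- pools and 105 and 85.8% in WT. *Rpl22l1* was at 411 and 445 TPM against 479 and 452 TPM (log2FC −0.12), and *Rpl22* at 452 and 705 TPM against 457 and 527 TPM (log2FC 0.20). *Rps27l*, a p53 target, reached 25.6 and 28.6% of *Rps27* in *Shh*-/- and 30.2 and 29.2% in WT.

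*Rps27l* was at 331 and 370 TPM in *Shh*-/- and 427 and 404 TPM in WT, without overlap (log2FC −0.25, limma adjusted p = 0.211), and its partner *Rps27* at 1294 TPM in each *Shh*-/- pool against 1415 and 1383 TPM in WT (log2FC −0.11). *Rpl7l1*, which works in ribosome assembly, was at 136 and 137 TPM against 124 and 121 TPM (log2FC 0.16, limma adjusted p = 0.328). *Rps4l*, annotated as a transcribed processed pseudogene of *Rps4x*, was at 97.6 and 94.0 TPM in *Shh*-/- and 66.4 and 51.0 TPM in WT (log2FC 0.71, limma adjusted p = 0.104), while *Rps4x* was at 2265 and 2594 TPM against 2523 and 2764 TPM (log2FC −0.12).

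*Rps3a2* and *Rps3a3*, annotated as processed pseudogenes of *Rps3a1*, were below it in level and had the same sign. *Rps3a2* was at 521 and 578 TPM in *Shh*-/- and 656 and 697 TPM in WT (log2FC −0.30, limma adjusted p = 0.160). *Rps3a3* was at 156 and 165 TPM against 175 and 192 TPM (log2FC −0.19), and *Rps3a1* at 2076 and 2270 TPM against 2360 and 2401 TPM (log2FC −0.13). All 3 were without overlap, and none passed the adjusted threshold in limma.

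*Rpl36a* and *Rpl36al* encode nearly the same protein. *Rpl36al* was at 2.85 TPM in *Shh*-/- pool 1 and at 143, 139 and 260 TPM in *Shh*-/- pool 2 and the WT pools, so 1 library alone set its log2 fold change of −3.02 (standard error 1.69, limma adjusted p = 0.320). *Rpl36a* was at 606 and 859 TPM against 690 and 696 TPM (log2FC 0.06). *Rpl3*, *Rpl10* and *Rpl39*, whose paralogs were listed at 0, had fold changes of 0.21, −0.09 and −0.31. *Rpl39*, at 657 and 692 TPM in *Shh*-/- and 861 and 813 TPM in WT, did not overlap between groups (limma adjusted p = 0.137).

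Other ribosomal protein genes fall outside the naming rule. *Fau*, which encodes a ubiquitin-like domain fused to a ribosomal protein, was at 798 and 1012 TPM in *Shh*-/- and 911 and 882 TPM in WT, which overlap (log2FC 0.0034). *Gnb2l1*, the scaffold protein Rack1 of the small subunit, was at 1817 and 1837 TPM against 2029 and 2066 TPM (log2FC −0.16, limma adjusted p = 0.267). The retrogenes *Rpl37rt* and *Rps27rt* had fold changes of −0.49 and −0.16, with groups that overlap. *Rpl37rt* was low in *Shh*-/- pool 1 alone, at 163 TPM there and at 370, 363 and 331 TPM in *Shh*-/- pool 2 and WT pools 4 and 6 (standard error 0.39, limma adjusted p = 0.452).

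Short motifs of the pyrimidine tract that marks TOP mRNAs were more frequent at the reference starts of the members than at all starts, as a count and without a test. In a window from 20 bases before to 20 bases after the start listed first by RefSeq, 33 of the 63 protein-coding members found in the table (52.4%) held the motif CTTTT or the motif CTTTC or the motif CTTCC or the motif CTCTT on the mRNA strand. These can overlap each other. Over all 27025 promoters of the same length the share was 20.4%. On the other strand the shares were 27.0% and 20.6%. The 30 bases from 10 before the start (RefSeq, GRCm38) are printed for 2 called members and for *Rpl38* and *Rps26*, whose fold changes were below 0, with these motifs in capitals where they lie wholly inside. *Rpl29* was not in the table.
Rpl7a, chr2:26910797-26910826, plus strand: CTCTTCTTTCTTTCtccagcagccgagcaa
Rpl38, chr11:114668570-114668599, plus strand: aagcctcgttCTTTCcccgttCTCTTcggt
Rps26, chr10:128626487-128626516, minus strand: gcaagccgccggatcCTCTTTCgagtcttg
Rps2, chr17:24720053-24720082, plus strand: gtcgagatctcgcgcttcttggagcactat

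The *Rps2* window holds none of the motifs. A match describes letters in the reference, and no factor or start was measured here. Other mRNAs known to carry a TOP tract had 8 fold changes above 0 and 18 below among 26 tested, with a median of −0.14 and none called by limma (4 higher and 5 lower at unadjusted p under 0.05). Among them *Npm1*, a nucleolar chaperone of ribosome assembly, was at 1771 and 1594 TPM in *Shh*-/- and 2100 and 2549 TPM in WT (log2FC −0.46, limma adjusted p = 0.136). *Vim*, an intermediate filament gene that is also on this list, was at 533 and 551 TPM against 366 and 383 TPM (log2FC 0.53, limma adjusted p = 0.0728).

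Translation factors had no called gene in limma. Of 8 elongation factors tested, 3 were above 0 and 5 below (median −0.10), with 2 higher and 0 lower at unadjusted p under 0.05. *Eef1a1*, which delivers aminoacyl-tRNA and is more abundant than any member, was at 7359 and 6672 TPM in *Shh*-/- and 7482 and 8152 TPM in WT (log2FC −0.16). *Eef2*, the translocation factor, had the opposite sign, at 1784 and 1590 TPM against 1353 and 1317 TPM (log2FC 0.34, limma adjusted p = 0.140). Of 37 initiation factors 15 were above 0 and 22 below (median −0.09), with 3 higher and 6 lower at unadjusted p under 0.05. The lowest was *Eif2s1*, a subunit of the factor that brings the initiator tRNA (log2FC −0.48), and the highest *Eif1b* (0.37).

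Ribosome assembly genes, 79 of them tested, had 24 fold changes above 0 and 55 below, with a median of −0.15 beside −0.08 for the members. None was called by limma, but 23 were lower and 2 higher at an unadjusted p under 0.05, where 7.22% of all tested genes were lower and 17.5% higher. *Shh*-/- pool 1 was lowest for 41.8% of them. *Gnl3*, the nucleolar GTPase nucleostemin, was at 106 and 105 TPM in *Shh*-/- and 169 and 177 TPM in WT (log2FC −0.71, standard error 0.09, limma adjusted p = 0.0595).

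*Tsr1*, which works in the maturation of the small subunit, was at 41.4 and 48.9 TPM in *Shh*-/- against 84.9 and 76.2 TPM in WT (log2FC −0.82, limma adjusted p = 0.0736). *Rpf2*, which helps to build the 5S particle into the large subunit, was at 24.4 and 41.6 TPM against 57.4 and 62.0 TPM (log2FC −0.88, limma adjusted p = 0.146). In all 3 genes the groups did not overlap. The highest was *Gnl3l*, a relative of *Gnl3* (log2FC 0.46, limma adjusted p = 0.114). RNA polymerase I and its factors, which transcribe the ribosomal RNA, had 7 fold changes above 0 and 8 below among 15, from −0.64 for *Taf1d* to 0.45 for *Taf1c*.

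Known regulators of ribosomal protein synthesis did not share a direction either. Of 17 tested, 11 were above 0 and 6 below (median 0.19), with none called by limma and 0 higher and 2 lower at unadjusted p under 0.05. *Myc*, which drives transcription of ribosome genes, had a fold change of 0.28 and *Mycn* one of −0.22. *Mtor* was at 0.33. Of the S6 kinases, *Rps6kb1* was at −0.33 and *Rps6kb2* at 0.38. *Larp4* had the lowest fold change, −0.75 (limma adjusted p = 0.0963). Cell cycle genes had 8 above 0 and 15 below (median −0.19), and p53 targets 12 above 0 and 6 below (median 0.29), with none called by limma in either list. At an unadjusted p under 0.05, 2 cell cycle genes were higher and 6 lower, and 4 p53 targets were higher and 1 lower.

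The mitochondrial ribosome, which is built from other proteins, showed medians near those of the cytosolic ribosome. Its large subunit had 17 fold changes above 0 and 31 below (median −0.08), its small subunit 12 above and 17 below (median −0.09), and none was called by limma, with 3 higher and 12 lower at unadjusted p under 0.05 over both subunits. *Shh*-/- pool 1 was lowest for 60.4% of the large and 41.4% of the small subunit genes. Genes of oxidative phosphorylation, which like the members have short mRNAs, had 22 above 0 and 37 below (median −0.05), and *Shh*-/- pool 1 was lowest for 67.8%. One of them, *Atp5g1*, a subunit of the ring of the ATP synthase, rose from 23.7 and 20.9 TPM in WT to 122 and 118 TPM in *Shh*-/- (log2FC 2.38, limma adjusted p = 0.0319). A further list, of H2A variants and other short mRNAs, was split evenly around 0, with 13 above and 13 below. Its median was −0.0015, with all tested genes at 0.08, and 50% were above 0, against 58.3% of all tested genes. None was called by limma, with 7 higher and 4 lower at unadjusted p under 0.05. *Shh*-/- pool 1 was lowest for 46.2% of that list, against 22.3% of all tested genes.

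**Figure D4:**
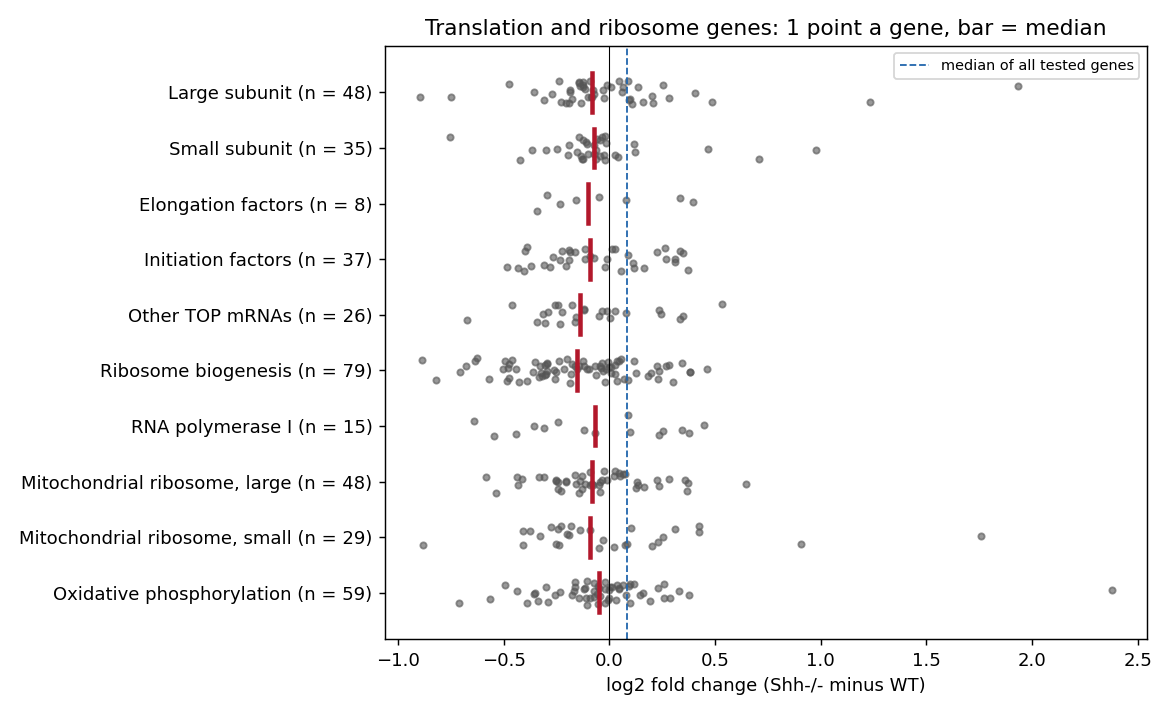
Log2 fold change (*Shh*-/- minus WT) of each tested gene of the large and small cytosolic subunits and of 8 further lists, 1 point a gene, with a red bar at the median of each list. The medians run from −0.15 for ribosome biogenesis to −0.05 for oxidative phosphorylation, all left of the dashed line at the median of all tested genes (0.08).

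Across the 83 members the size of the fold change was larger where the WT level was lower (Pearson r = −0.584, Spearman rho = −0.371, over genes, which share the same 4 libraries). With transcript length the fold change had r = −0.086 and rho = −0.078. Against the percent of windows shared with another gene, the size of the fold change had r = −0.082 and rho = −0.177 (80 members). Against the share that a member held of its sum with pseudogenes in WT, this size had r = −0.418 and rho = −0.136. These are descriptions over genes that are not independent. The WT level is also a term of the fold change and of that share. Part of the relation with WT level or with the share can therefore be built in.

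Markers of other cell types differed between the pools. Erythroid genes, 10 of 10 below 0, took 1.18% of TPM in *Shh*-/- pool 1 and 1.79, 1.62 and 1.84% in *Shh*-/- pool 2 and WT pools 4 and 6, and pool 1 was the lowest for 8 of the 10. Their summed level was thus lowest in the pool that also had the lowest share of ribosomal protein transcripts. With the haemoglobin genes left out of the total, the members took 9.89 and 10.95% in *Shh*-/- and 10.94 and 10.99% in WT, so pool 1 stayed below the others. Neuron markers summed to 916 and 994 TPM in *Shh*-/- and 333 and 295 TPM in WT, with 5 of 12 called higher. Muscle markers (9 tested, 2 called higher) summed to 186 and 300 TPM against 71.7 and 82.0 TPM, and endothelial markers (8 tested, 1 called higher) to 428 and 508 TPM against 286 and 263 TPM.

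Markers of the labeled tissue moved in both directions, and several of its defining transcription factors were low in *Shh*-/-. Foregut epithelium genes summed to 873 and 747 TPM in *Shh*-/- and 777 and 804 TPM in WT, with 9 of 15 above 0 and none called by limma (1 higher and 3 lower at unadjusted p under 0.05). The 3 lowest were the foregut factors *Foxa2* (5.34 and 9.12 TPM against 29.2 and 39.8 TPM, log2FC −2.13, limma adjusted p = 0.0602), *Nkx2-1* (6.16 and 3.61 TPM against 15.9 and 17.9 TPM, log2FC −1.64) and *Foxa1* (14.5 and 15.6 TPM against 25.6 and 37.8 TPM, log2FC −1.004), each without overlap. The 3 highest of that list were *Krt8* (log2FC 0.44, limma adjusted p = 0.128), *Cldn7* (log2FC 0.38) and *Epcam* (log2FC 0.33), also without overlap. *Sox2*, another foregut factor, overlapped, at 52.2 and 37.9 TPM in *Shh*-/- and 39.5 and 47.3 TPM in WT (log2FC 0.04). Foregut mesenchyme genes summed to 1237 and 1135 TPM against 951 and 937 TPM, with 6 higher and 4 lower at unadjusted p under 0.05. *Foxf2* fell to 0.24 and 1.24 TPM from 20.34 and 20.004 TPM (log2FC −3.67, limma adjusted p = 0.0383), and *Twist1* rose to 147 and 125 TPM from 46.1 and 43.8 TPM (log2FC 1.57, limma adjusted p = 0.0323). *Foxf1*, the lowest of the list, was at 0.85 and 9.57 TPM against 72.3 and 64.6 TPM (log2FC −3.97, limma adjusted p = 0.0976). *Tbx5* was at 1.22 and 4.71 TPM against 19.4 and 12.6 TPM (log2FC −2.23), and both were lowest in *Shh*-/- pool 1. The sums of the lists thus do not show the change of these factors. Neural crest genes (9 tested, 1 called higher) summed to 235 and 200 TPM against 176 and 146 TPM, and leukocyte genes to 20.8 and 16.0 TPM against 14.2 and 14.4 TPM. The part of these differences in the levels of the ribosomal protein genes was not tested.

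**Figure D5:**
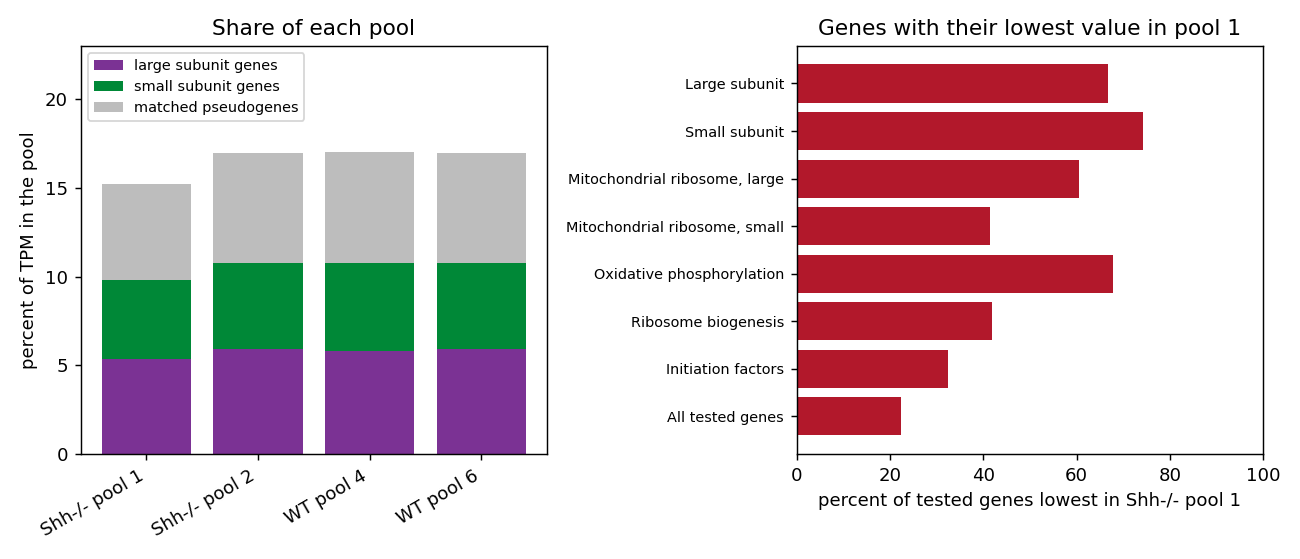
Left, percent of TPM in each pool taken by large subunit genes, small subunit genes and their sequence-matched pseudogenes, stacked from 0. Right, percent of tested genes of each list whose lowest value of the 4 pools is in *Shh*-/- pool 1, which is 69.9% for all members and 22.3% for all tested genes.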

How the data were processed

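RNA-seq was analyzed from 4 libraries of mouse larynx tissue, 2 *Shh*-/- and 2 WT pools of 3 larynxes. Per the study's methods and the submitters' notes, stranded poly(A) libraries were read single-end, mapped to mm10 by HISAT2 2.1.0 and assembled by StringTie 1.3.6. How multiply aligned reads were assigned is not given in the sources used here. The deposited TPM values are FPKM scaled by the authors to a sum of 1000000 per library. The deposited FPKM values are coverage scaled by aligned bases, and served as an alternative. The deposited coverage signal is unscaled, and its ratio to FPKM over genes with 1 transcript gave the aligned bases. No counts were used, so no counting interval was computed.

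TPM was summed per gene ID and tested as log2(TPM + 1) with limma 3.58.1 in R 4.3.3 (eBayes with trend), over genes whose TPM averaged 1 or more. P-values were adjusted by the Benjamini-Hochberg method, with a threshold of 0.05. The smallest exact permutation p for 2 against 2 pools is 0.33, so none was computed. Pseudogenes were matched with blastn 2.17.0. The fit was tested on simulated data.

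The members and lists were chosen with earlier results of these data known. Named genes were the called members, the 5 highest and 5 lowest fold changes, the 3 highest and 3 lowest levels of each subunit, paralog pairs, ribosomal proteins outside the naming rule, *Shh*, *Ptch1*, and of each other list the called genes and at most the 3 highest and lowest. Other members, *Eef1a1*, the pseudogenes and the mitochondrial ribosome lists were chosen after their values were seen. Alternatives were other pseudocounts, filters, scalings and variance models, FPKM, a correction for GC content and transcript length, pseudogenes added by name, each pool left out and, added after the data were seen, pseudogenes added by sequence. Some genes that this rule names are not reported here.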

Additional observations from a re-analysis of the deposited data

How the results depend on the processing

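No paired analysis was possible because the groups share no replicate number (1 and 2 against 4 and 6). The 123 genes called by limma among all tested genes became 69 with a pseudocount of 0.1 and 0 without a filter on mean TPM, where 5011 had an unadjusted p under 0.05. Leaving out 1 pool gave 0 to 16, with the lone pool taken to vary like the others. The 3 members called became 0 without a filter (6 higher and 4 lower at unadjusted p under 0.05), 0 without a variance trend (lowest adjusted p 0.0519, 5 and 2), 0 with named pseudogenes added (lowest 0.0621, 3 and 5), 0 with sequence-matched pseudogenes added and 0 whichever pool was left out. *Rps2* alone was lost with median centring (adjusted p = 0.0614) and with the correction for GC content and length (adjusted p = 0.0602). Median centring moved the large subunit median to −0.21 and the small subunit median to −0.20. With 1 pool left out the large subunit median ran from −0.13 to 0.0058 and the small subunit median from −0.14 to −0.0004. Fold changes near 0 changed sign. *Rps14* was 0.13 with quantile normalization. *Rpl13a* was −0.12 with centring, −0.025 in FPKM, −0.087 with the GC and length correction and −0.0036 with sequence-matched pseudogenes. *Rpl36a* was −0.070 with centring and −0.088 with named pseudogenes, and *Rpl22l1* was 0.21 with the GC and length correction. Leaving out 1 pool gave −0.11 to 0.079 for *Rps14*, −1.51 to 0.0019 for *Rps20*, −0.067 to 0.085 for *Rpl13a*, −0.12 to 0.52 for *Rpl22*, −0.040 to 0.45 for *Rpl3* and −0.19 to 0.31 for *Rpl36a*. The alternatives were run for 28 members, given by the rule for named genes, which used calls, fold changes, levels and paralog pairs. They were not run one by one for members named after their values were seen. With sequence-matched pseudogenes *Rpl34* changed sign from 0.40 to −0.16 and *Rplp1* from 0.09 to −0.06. The causes of these changes were not tested. *Shh*-/- pool 1 had the lowest depth, and the part of depth in these results was not tested.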
